A study of Homo sapiens with 6 samples.

Results

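The aldo-keto reductases examined here are the 10 genes AKR1C1, AKR1C2, AKR1C3, AKR1C4, AKR1B1, AKR1B10, AKR1B15, AKR1A1, AKR7A2 and AKR7A3. They were found by gene symbol among the 58884 rows of the expression matrix, in which each symbol had 1 row. RNA sequencing was performed on KYSE450, a human esophageal squamous cell carcinoma (ESCC) line with wild-type NRF2, and on KEAP1null-KYSE450, a monoclonal derivative in which KEAP1 was disrupted by CRISPR-Cas9. Each line had 3 libraries of untreated cells grown in RPMI1640 with fetal bovine serum, and the comparison asked what NRF2 activation does to gene expression in these cells. Since the edited line is 1 clone, the loss of KEAP1 and other differences between that clone and its parent cannot be told apart. Nothing in the labels says that the libraries came from separate cultures, so the p-values measure only the spread between these libraries, which may be technical.

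Aldo-keto reductases are cytosolic, mostly monomeric enzymes that use NADPH to reduce aldehydes and ketones to alcohols. The AKR1C genes act on steroids, prostaglandins and many xenobiotics, the AKR1B genes on sugars, lipid aldehydes and retinaldehyde, and the AKR7A genes on dialdehydes such as those formed from aflatoxin. KEAP1 marks the transcription factor NRF2 for degradation, and NRF2 with a small MAF partner binds the antioxidant response element (ARE) of its target genes, which in human cells include several aldo-keto reductases.

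The 4 AKR1C genes lie side by side on chromosome 10 of hg38, at chr10:4963253-4983283 (AKR1C1, plus strand), chr10:4987775-5018031 (AKR1C2, minus strand), chr10:5035354-5107686 (AKR1C3, plus strand) and chr10:5195462-5218949 (AKR1C4, plus strand). The main transcript of each has 9 exons and a coding part of 969 bases. Over that part AKR1C1 and AKR1C2 were 98.0% identical, with 19 bases different, while AKR1C1 was 91.4% identical to AKR1C3 and 88.5% to AKR1C4. Coding bases 103 to 162, counted from the start codon, show how the 4 genes differ. Capitals mark the 16 of these 60 positions at which the 4 genes do not all have the same base.
AKR1C1: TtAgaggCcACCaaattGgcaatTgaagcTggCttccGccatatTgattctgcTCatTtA
AKR1C2: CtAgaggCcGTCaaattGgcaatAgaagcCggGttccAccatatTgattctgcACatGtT
AKR1C3: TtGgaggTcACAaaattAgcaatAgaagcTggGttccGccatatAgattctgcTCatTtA
AKR1C4: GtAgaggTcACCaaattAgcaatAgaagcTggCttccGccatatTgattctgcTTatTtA
This likeness bears on the values, because a read that fits 2 genes equally can be dropped or assigned to either. The study read 150 bases. Of all stretches of 150 bases in the main transcript, 7.91% in AKR1C1, 17.2% in AKR1C2 and 2.12% in AKR1C3 occurred unchanged in another member, and no such stretch was found in the other 7 members.

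The ARE was searched in the 10 kb (10000 bases) upstream of the main transcript of each member as the letters TGACTCAGC, on both strands. The letters contain TGACTCA, which AP-1 factors also bind, so the motifs of the 2 factor families overlap. AKR1C1 held 1 match, AKR1C2 held 1 and AKR7A2 held 2, and no match was found in the windows of the other 7 genes. The matches are shown because those of AKR1C1 and AKR1C2 lie in the same sequence. The motif or its reverse complement GCTGAGTCA stands in capitals, 16 bases are given on each side, and the strand is that of the gene.
AKR1C1, 6343 bases upstream, chr10:4957056-4957096, plus strand: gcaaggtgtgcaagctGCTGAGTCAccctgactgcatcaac
AKR1C2, 5560 bases upstream, chr10:5009393-5009433, minus strand: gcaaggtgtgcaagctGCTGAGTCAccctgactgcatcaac
AKR7A2, 1700 bases upstream, chr1:19313820-19313860, minus strand: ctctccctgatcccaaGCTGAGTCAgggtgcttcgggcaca
AKR7A2, 607 bases upstream, chr1:19312727-19312767, minus strand: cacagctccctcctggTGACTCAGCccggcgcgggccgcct
The AKR1C1 and AKR1C2 matches were identical over an unbroken run of 53 bases, and 97.0% identical over 1005 aligned bases around them. The AKR1C1 match fell in no annotated gene. The AKR1C2 match fell inside the span of AKR1C2, upstream of its main transcript and in no exon, and both AKR7A2 matches fell within SLC66A1, the nearer one in an exon of that gene. Of the same windows of 19970 protein-coding genes, 12.9% held at least 1 match and 1.14% held 2 or more. A match is a stretch of letters, and no binding was measured here. In the RefSeq promoters of GRCh38.p14, which run from 250 bases before to 50 bases after the gene start, the looser letters TGACNNNGC were found 3 times in AKR7A2 and in no promoter of the other 7 members listed there, against 13.3% of all 35116 promoters. AKR1B10 and AKR1B15 are the members that table does not list.

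KEAP1, the edited gene, stood at 5760, 5226 and 5146 normalized counts in KYSE450 and at 5737, 4906 and 5317 in KEAP1null-KYSE450, a log2 difference of -0.02 whose sign turned with the scaling. Gene counts do not show which bases were edited, so this level does not check the labels. NFE2L2, which encodes NRF2, differed by -0.47 (SE 0.085, limma adjusted p = 0.000634), short of the fold threshold used here. The normalized counts summed to between 54829313 and 57380170 per library. The 8 squamous epithelial markers were all above the floor of 3 reads (2.77 to 3.21 normalized counts) in every library, whereas none of the 4 liver markers was, with summed levels of 1.01 to 7.38 normalized counts. Of the 8, 6 were lower in KEAP1null-KYSE450, and 3 of these were called, KRT6A at -4.70, PKP1 at -2.95 and KRT13 at -1.40 on the log2 scale. TP63 at -0.60, SOX2, which fell just short of the fold threshold, and SFN at -0.41 were not called, and KRT5 was called higher at 1.46. Their sum, between 407167 and 563652 normalized counts in KYSE450 and between 610559 and 753644 in KEAP1null-KYSE450, was mostly KRT5 in the edited line. The 4 fibroblast markers, of which 1 was above the floor in every library, summed to between 621 and 845 normalized counts in KYSE450 and between 334 and 431 in KEAP1null-KYSE450, and the part of either list in any result was not tested. These are bulk libraries, in which fewer cells expressing a gene and less of its RNA per cell cannot be told apart.

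A gene was tested if its mean over the 6 libraries was at least 10 normalized counts, and called if limma gave a Benjamini-Hochberg adjusted p under 0.05 over all 16701 genes tested and a log2 fold change of at least 1 in size. Fold changes from the test are on the scale of log2(normalized count + 1). Of the 10 members, 9 were tested, and 8 of them were called higher in KEAP1null-KYSE450, against a background of 12.2% of all genes tested. No tested member was called lower by limma, edgeR or DESeq2, none of them was lower at an unadjusted p under 0.05, and the background was 5.98%. AKR7A3, the member not tested, is described below. AKR1C4 and AKR1B15 passed the filter only through their KEAP1null-KYSE450 libraries and therefore had to differ. Without these, 7 members were tested and 6 were called higher. The libraries of the lines did not overlap in any of these 7 members, with KEAP1null-KYSE450 higher each time, which held for 28.4% of all genes tested. Those of AKR1C4 and AKR1B15 did not overlap either, but these genes had to differ. The members together took 0.0275% ± 0.00144 (SD, n = 3) of all normalized counts in KYSE450 and 2.17% ± 0.156 in KEAP1null-KYSE450. An exact two-sided permutation test gave p = 0.1 for this share, the smallest that 3 against 3 libraries allow.

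**Figure D1:**
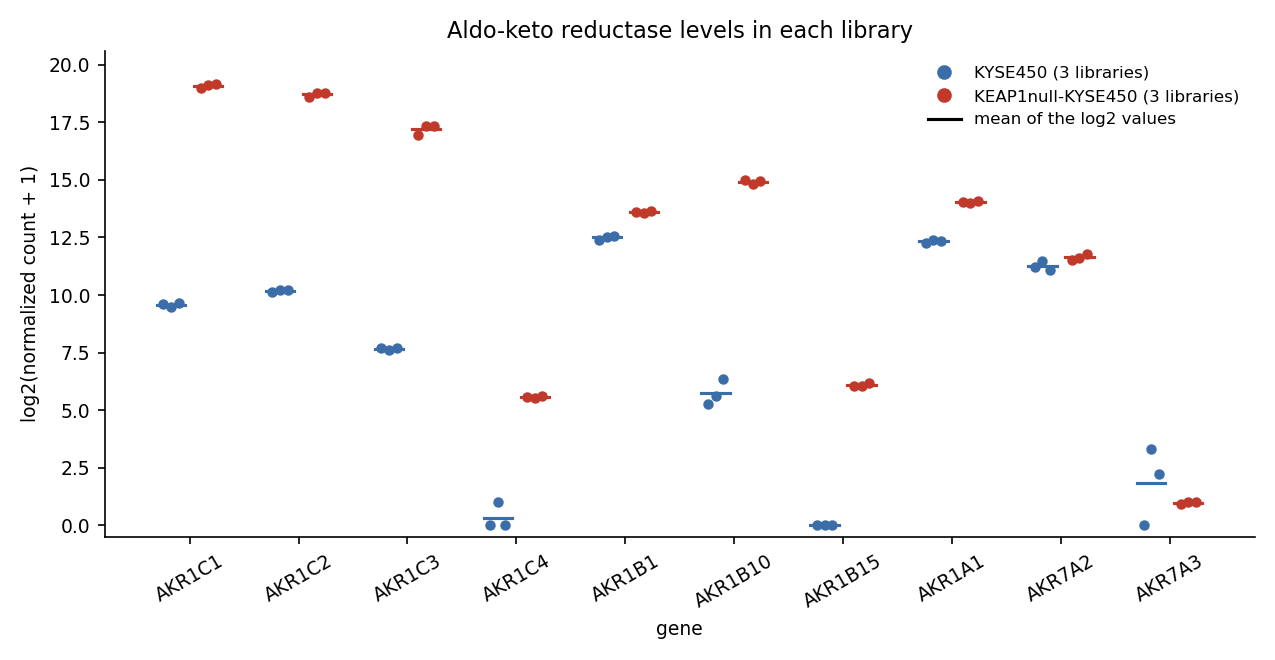
Levels of the 10 members in each library as log2(normalized count + 1), with KYSE450 in blue, KEAP1null-KYSE450 in red, 1 point per library and a line at the mean of the log2 values. AKR1C1, AKR1C2, AKR1C3 and AKR1B10 show the widest gaps between the lines, and AKR7A3 is the member whose libraries overlap.

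AKR1C1, which inactivates progesterone and reduces products of lipid peroxidation, was read at 788, 713 and 795 normalized counts in the KYSE450 libraries. In the KEAP1null-KYSE450 libraries it was read at 518442, 561810 and 590135 normalized counts. Every edited library lay far above every parental one, and by mean level AKR1C1 ranked 8387 among all rows in KYSE450 and 4 in KEAP1null-KYSE450. Its means of 765 ± 45.8 and 556796 ± 36109 (SD, n = 3) gave a 727-fold difference, with a log2 fold change of 9.50 (SE 0.096, limma adjusted p = 2.49e-15). It alone held 1.00% ± 0.0653 of all normalized counts in KEAP1null-KYSE450.

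AKR1C2, which inactivates dihydrotestosterone, stood at 1109, 1182 and 1186 normalized counts in KYSE450 and at 396368, 446537 and 442746 in KEAP1null-KYSE450. The libraries of each line lay close together and far from those of the other line. The 370-fold difference corresponded to a log2 fold change of 8.53 (SE 0.094, limma adjusted p = 3.73e-15).

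AKR1C3, which makes testosterone from androstenedione and reduces prostaglandins, had 209, 192 and 204 normalized counts in KYSE450 and 125959, 164818 and 163761 in KEAP1null-KYSE450. The first of the edited libraries lay below the other two, and all of them were far above the parental ones. The difference was 752-fold, with a log2 fold change of 9.54 (SE 0.11, limma adjusted p = 5.54e-15). By size of log2 fold change AKR1C3 ranked 5, AKR1C1 ranked 6, AKR1B10 ranked 9 and AKR1C2 ranked 11 among the genes tested.

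AKR1C4, the AKR1C gene known from liver, had 0, 1.01 and 0 normalized counts in KYSE450 and 46.1, 44.9 and 47.4 in KEAP1null-KYSE450. In reads, taking the smallest step of each library as 1 read, this was 1 read against 141. The parental read lay in KYSE450 library 2, whose step was not counted as checked. Their ratio per unit of depth was 138, with a 95% interval from 24.4 to 5499.8 that covers counting error only. AKR1C4 stayed at 0.00798% to 0.0089% of the AKR1C1 value in the edited libraries. Whether some of its reads belong to its larger neighbours was not tested, although no stretch of 150 bases of its main transcript was shared with another member.

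The split of normalized counts among the 3 high AKR1C genes, not divided by length, differed between the lines. Of their summed value AKR1C1 made up 37.4%, 34.2% and 36.4% in KYSE450, compared with 49.8%, 47.9% and 49.3% in KEAP1null-KYSE450. AKR1C2 made up 54.5% ± 2.00 in KYSE450 and 37.7% ± 0.620 in KEAP1null-KYSE450, and AKR1C3 made up 9.48% ± 0.370 and 13.3% ± 1.03 (SD, n = 3). The AKR1C1 and AKR1C3 shares were larger in the edited line and the AKR1C2 share smaller, with no overlap between libraries. These shares compare the lines and not the genes, whose order turns with the length used. On the log2 scale AKR1C1 over AKR1C2 was -0.60 ± 0.12 in KYSE450 and 0.38 ± 0.042 in KEAP1null-KYSE450, and AKR1C3 over AKR1C2 was -2.52 ± 0.11 and -1.51 ± 0.13. AKR1C1 over AKR1C3 was 1.92 ± 0.035 and 1.89 ± 0.14, with overlapping libraries. Of these 3 ratios, exact two-sided permutation tests gave an unadjusted p = 0.1 for each of the first pair, the smallest possible here, and p = 0.8 for the last. AKR1C1 and AKR1C2 share the most sequence, so their split is less certain than their sum, and the 3 genes summed before the test gave a log2 fold change of 9.06 (SE 0.10, limma adjusted p = 7.75e-15).

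**Figure D2:**
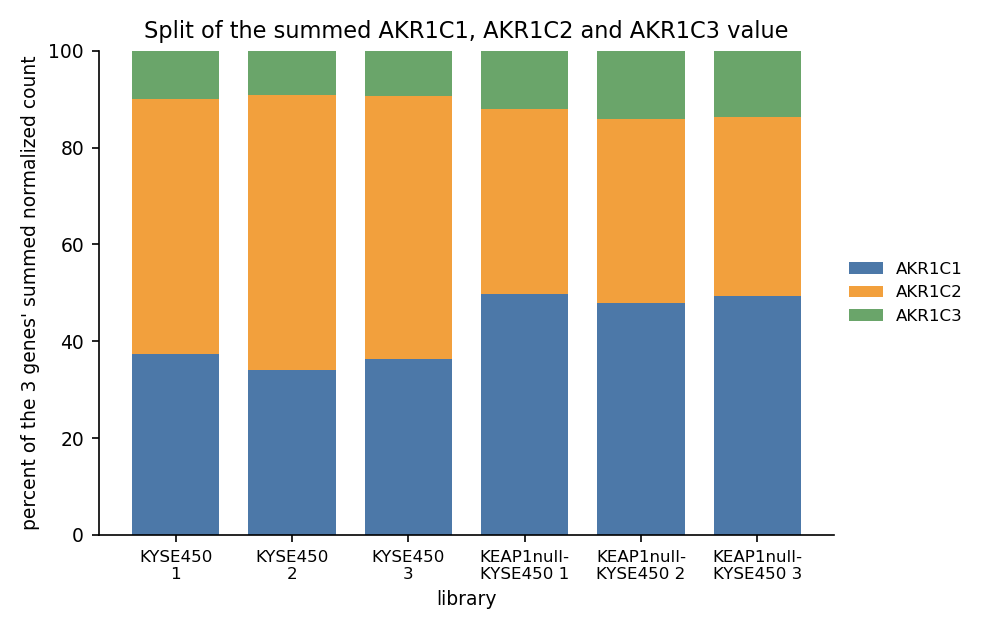
Percent of the summed normalized count of AKR1C1, AKR1C2 and AKR1C3 that each gene took in each library, as stacked bars from 0 to 100. The AKR1C1 part was 34.2% to 37.4% in KYSE450, against 47.9% to 49.8% in KEAP1null-KYSE450.

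The AKR1B genes form a second cluster, at chr7:134442356-134459284 (AKR1B1, minus strand), chr7:134527567-134541412 (AKR1B10, plus strand) and chr7:134549110-134579875 (AKR1B15, plus strand). Their members changed by very different amounts. AKR1B10 and AKR1B15 were 93.5% identical over 948 aligned coding bases, and AKR1B1 and AKR1B10 were 77.1% identical.

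AKR1B1 is aldose reductase, which turns glucose into sorbitol in the first step of the polyol pathway. It had 5365, 5861 and 6128 normalized counts in KYSE450 and 12549, 12043 and 12628 in KEAP1null-KYSE450. Every edited library was above every parental one, by a 2.14-fold difference of means. The log2 fold change of 1.10 (SE 0.090, limma adjusted p = 9.86e-07) had a 95% interval from 0.91 to 1.30, which includes the fold threshold, and AKR1B1 was not called when tested against a fold change of 2. SORD, the next enzyme of that pathway and named after its values were seen, differed by -0.09 (SE 0.086, limma adjusted p = 0.404).

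AKR1B10 reduces retinaldehyde and lipid aldehydes and is known from the intestine and from squamous and lung tumors. It had 37.4, 48.5 and 81.1 normalized counts in KYSE450 and 32141, 28889 and 31926 in KEAP1null-KYSE450. The parental libraries were spread more widely, with a coefficient of variation of 40.8% against 5.87% in the edited line. The means of 55.7 ± 22.7 and 30985 ± 1818 gave a 556-fold difference and a log2 fold change of 9.17 (SE 0.21, limma adjusted p = 3.84e-12).

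AKR1B15, a close copy of AKR1B10 with its own steroid and ketone substrates, had no reads in the parental libraries, while the edited ones held 64.6, 65.2 and 70.6 normalized counts. Measured against a floor of 3 reads per library, it was at least 22.2-fold higher in the edited line. These values were 0.201% to 0.226% of those of AKR1B10 in the same libraries. AKR1B10P1, at chr10:67750284-67751225, is a copy of AKR1B10 and was 95.2% identical to its main transcript over 942 aligned bases. It likewise had 0 in KYSE450 and 123, 87.7 and 89.8 normalized counts in KEAP1null-KYSE450. The pseudogene rose along with its parent at 0.281% to 0.382% of the AKR1B10 value, and whether either gene holds reads of AKR1B10 was not tested. The 3 genes summed gave a log2 fold change of 9.17 (SE 0.21, limma adjusted p = 3.73e-12).

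AKR1A1, at chr1:45550543-45570049 on the plus strand, is the aldehyde reductase found in most tissues, where it reduces glucuronate. It had 4928, 5405 and 5155 normalized counts in KYSE450 and 16593, 16486 and 17059 in KEAP1null-KYSE450. Its libraries agreed closely within each line and lay well apart between lines. The difference of means was 3.24-fold, with a log2 fold change of 1.70 (SE 0.087, limma adjusted p = 1.14e-08).

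AKR7A2, at chr1:19303965-19312144 on the minus strand, reduces succinic semialdehyde and dialdehydes. It had 2385, 2805 and 2174 normalized counts in KYSE450 and 2935, 3128 and 3498 in KEAP1null-KYSE450. The ranges did not overlap but came close, with the highest parental library just under the lowest edited one. The log2 fold change of 0.38 (SE 0.11, limma adjusted p = 0.0148) was under the threshold of 1, so AKR7A2 was not called. The adjusted p was 0.0603 without KYSE450 library 3 and 0.0796 without KEAP1null-KYSE450 library 3, and an adjusted p under 0.05 was reached by 49.8% of all genes tested. In the letter search above AKR7A2 held the most matches, 2, both within SLC66A1, and their part in its level was not tested.

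AKR7A3, at chr1:19282573-19288770 on the minus strand, acts on the aflatoxin dialdehyde. It had 0, 9.10 and 3.73 normalized counts in KYSE450 and 0.923, 1.02 and 1.01 in KEAP1null-KYSE450, and did not pass the filter. The libraries of the lines overlapped. In reads this was 13 against 3, a ratio of 0.226 with a 95% counting interval from 0.0414 to 0.824, which leaves out the spread between libraries. KYSE450 library 2, whose step was not counted as checked, held 9 of the 13. Fitted with no filter, its log2 difference was -0.87 (SE 0.78, limma adjusted p = 0.463 over 28799 genes), so a difference was not detectable at this depth.

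**Figure D3:**
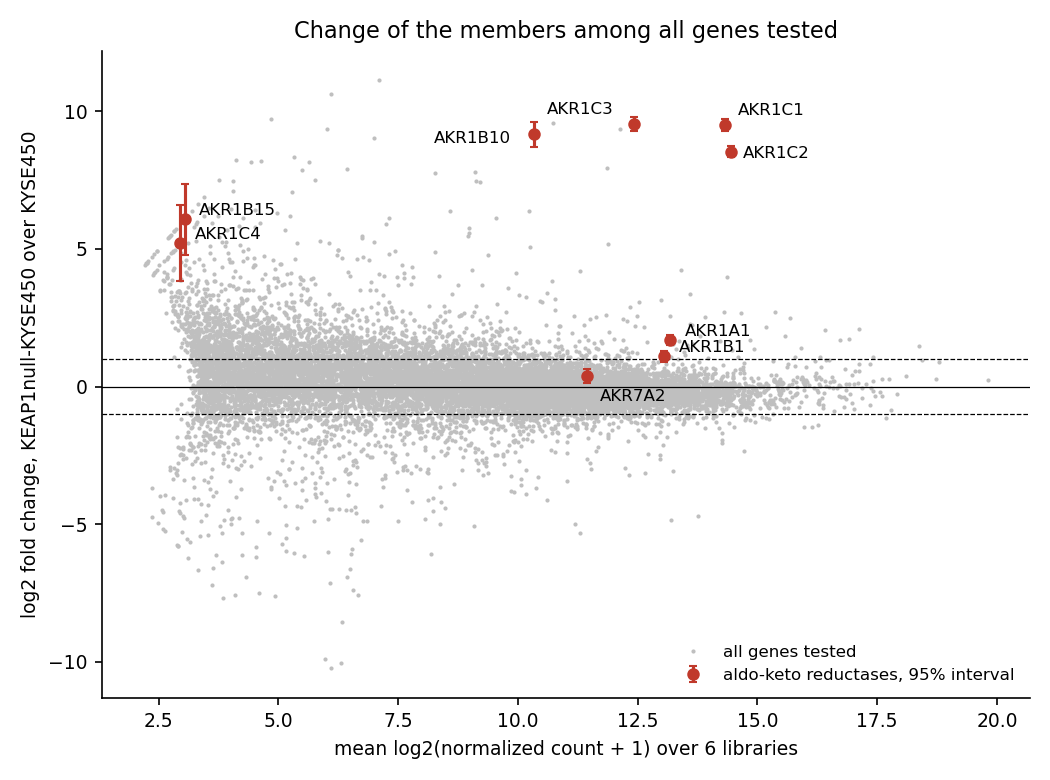
Log2 fold change (KEAP1null-KYSE450 over KYSE450) against mean log2(normalized count + 1) over the 6 libraries, for all 16701 genes tested in grey and the 9 tested members in red with 95% intervals. Dashed lines mark the fold threshold of 1, which the interval of AKR1B1 crosses, and AKR1C1, AKR1C2, AKR1C3 and AKR1B10 stand between 8.53 and 9.54.

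To compare levels between members, normalized counts were divided by the length of the main transcript in kb. In KYSE450 the order from the top was AKR1B1 (4250 ± 285 normalized counts per kb), AKR1A1 (3669 ± 169), AKR7A2 (1805 ± 236), AKR1C2 (360 ± 13.4), AKR1C3 (170 ± 7.21), AKR1C1 (117 ± 7.0), AKR1B10 (34.4 ± 14.0), AKR7A3 (3.52 ± 3.76) and AKR1C4 (0.283 ± 0.490), with AKR1B15 at 0. In the parental line, aldose reductase, aldehyde reductase and AKR7A2 were thus the main transcripts of the group. In KEAP1null-KYSE450 the order was AKR1C2 (133297 ± 8689 normalized counts per kb), AKR1C3 (127751 ± 18665), AKR1C1 (85098 ± 5519), AKR1B10 (19139 ± 1123), AKR1A1 (11878 ± 216), AKR1B1 (9116 ± 233), AKR7A2 (2343 ± 210), AKR1B15 (40.7 ± 2.02), AKR1C4 (38.7 ± 1.07) and AKR7A3 (0.810 ± 0.0437). The libraries of neighbouring genes overlapped for AKR7A3, AKR1C4 and AKR1B15 in KYSE450, and for AKR1C2 and AKR1C3 and for AKR1B15 and AKR1C4 in KEAP1null-KYSE450. The order among AKR1C1, AKR1C2 and AKR1C3 in the edited line, and that of AKR1C1 and AKR1C3 in the parental line, rest on the length chosen, since the main AKR1C1 transcript has 6543 bases and that of AKR1C3 has 1186. Per kb of coding sequence AKR1C1 was highest there (574608 ± 37264), followed by AKR1C2 (442260 ± 28829) and AKR1C3 (156360 ± 22845), and in KYSE450 AKR1C1 (790 ± 47.3) stood above AKR1C3 (208 ± 8.82). With the union of all exons as the length, AKR1C1 also stood above AKR1C3 in KYSE450, and AKR1A1 came before AKR1B1.

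The 4 loci were compared with their surroundings, the annotated genes within 500 kb. Of 47 such genes tested, 7 were called higher (14.9%, where the background was 12.2%) and 3 lower (6.38%, against 5.98%). In the AKR1C locus the called genes were the pseudogenes AKR1C6P and AKR1C7P and the non-coding RNA LINC02561, with log2 fold changes of 2.86 (SE 0.67, limma adjusted p = 0.00349) for AKR1C7P and 4.21 (SE 0.53, limma adjusted p = 4.04e-05) for LINC02561. AKR1C6P was at 0 in KYSE450 and at least 7.97-fold higher in KEAP1null-KYSE450. AKR1C6P and LINC02561 passed the filter only through the edited libraries and had to differ. The 14.9% includes them, so it cannot be read against the 12.2%. AKR1C7P had 23.5, 23.2 and 1.86 normalized counts in KYSE450, with the third library far under the others, and 79.4, 84.6 and 92.8 in KEAP1null-KYSE450. Next to AKR1B1 the non-coding RNA AC009275.1 rose by 2.90 (SE 0.33, limma adjusted p = 1.86e-05).

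Around AKR1A1, PRDX1, a peroxiredoxin gene 7.81 kb away that is itself a known NRF2 target, rose by 1.70 (SE 0.11, limma adjusted p = 1.09e-07). ZSWIM5 and PIK3R3 rose by 1.57 and 2.11 at larger distances. MMACHC, which overlaps the end of PRDX1 and acts on cobalamin, fell by 1.05 (SE 0.11, limma adjusted p = 1.05e-05). On 4 libraries edgeR gave -0.97 for MMACHC, and DESeq2 also fell just short of the threshold. Around the AKR7A genes IFFO2 fell by 2.24 on the log2 scale and NBL1 was also called lower. The strand used in counting is not given in the sources used here, so reads of overlapping genes such as MMACHC and PRDX1 could be split between them.

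**Figure D4:**
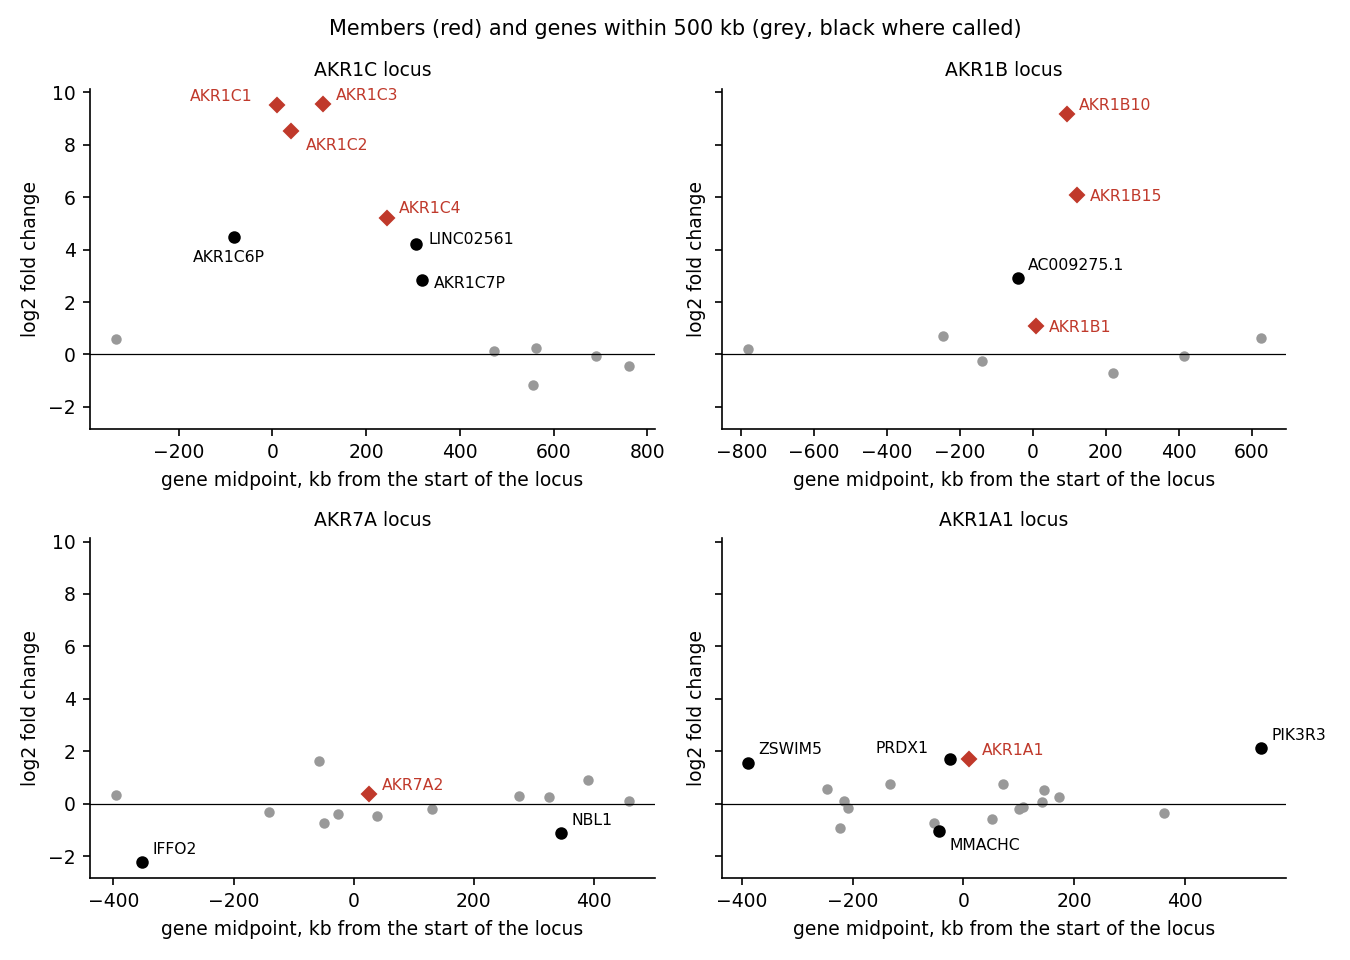
Log2 fold change (KEAP1null-KYSE450 over KYSE450) of members, as red diamonds, and of tested genes within 500 kb, in grey or in black where called, against the distance of the gene midpoint from the start of each of the 4 loci in kb. The members of the AKR1C and AKR1B loci lie above their neighbours except AKR1B1, which is under AC009275.1.

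The wider superfamily held few expressed genes. Of 13 further aldo-keto reductase superfamily genes and pseudogenes, 6 were tested and 3 were called higher, namely AKR1B10P1 (at least 33.2-fold), AKR1C6P and AKR1C7P. AKR1B10P1 and AKR1C6P passed the filter only through the edited libraries and had to differ, and without them 1 of 4 was called higher. The median log2 fold change of the 6 was 1.78. It includes the 2 genes that had to differ, so it cannot be read against the 0.0041 of all genes tested. Of the other 4, AKR1C7P stood at 2.86 and the rest were under 1. No gene of the list was called lower by limma, edgeR or DESeq2, and 0 were lower at an unadjusted p under 0.05. The potassium channel beta subunits KCNAB1, KCNAB2 and KCNAB3, which share the reductase fold, were tested and not called, with log2 differences between 0.42 and 0.70. KCNAB2 had limma adjusted p = 0.0107 and edited libraries all above the parental ones, while the libraries of KCNAB1 and KCNAB3 overlapped. An adjusted p under 0.05 was reached by 49.8% of all genes tested, and 28.4% did not overlap in that direction. Of the 7 genes not tested, 4 were at or under the floor in every library. 

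Known NRF2 targets outside the family moved in the same direction as the high members. Of 32 listed, all were tested, 29 were called higher (90.6%, against the 12.2% background) and the median log2 fold change was 2.38. The list was chosen with earlier results of these data known, so this share describes the listed genes only. No listed target was called lower by limma, edgeR or DESeq2, with 0 lower at an unadjusted p under 0.05. The largest called were the efflux transporters ABCC2 at 7.45 (SE 0.19, limma adjusted p = 1.01e-11) and ABCC3 at 5.48 (SE 0.22, limma adjusted p = 1.38e-09), the P450 enzyme CYP4F11 at 6.37 (SE 0.15, limma adjusted p = 3.86e-12) and PTGR1, a reductase of prostaglandins and leukotrienes, at 4.22 (SE 0.086, limma adjusted p = 1.72e-12). AKR1C1, AKR1C2, AKR1C3 and AKR1B10 each had a larger log2 fold change than any of these 32 genes. AKR1B1 had a smaller one than every called target of the list. The targets not called were TKT at 0.96, TALDO1 at 0.85 and BLVRB at 0.83, all with adjusted p under 0.05.

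Genes that act on the same substrates as the members were then read from 3 lists. Of 30 steroid-converting enzymes, 17 were tested, 1 was called higher and 1 lower (5.88% each, against backgrounds of 12.2% and 5.98%), with a median log2 fold change of 0.090. The gene called higher was UGT2B17, which conjugates androgens, at 1.07, 0 and 0 normalized counts in KYSE450 and 26.8, 29.6 and 41.4 in KEAP1null-KYSE450. It passed the filter only through the latter and had to differ, and without it 0 of 16 were called higher and 1 lower. The gene called lower was the estrogen sulfotransferase SULT1E1, at 19.3, 31.3 and 20.5 against 4.61, 13.3 and 3.03 normalized counts, which fell by 1.82 (SE 0.59, limma adjusted p = 0.0215). SULT1E1 was not called by edgeR or DESeq2, which were run on 4 libraries. By limma it was not called without KYSE450 library 2 (adjusted p = 0.0851), KEAP1null-KYSE450 library 1 (adjusted p = 0.0507) or KEAP1null-KYSE450 library 3 (adjusted p = 0.0744). Of the 17, 9 had a positive and 8 a negative log2 difference.

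Of 23 genes of prostaglandin synthesis, breakdown and response, 15 were tested, 5 were called higher and 3 lower (33.3% and 20%, against backgrounds of 12.2% and 5.98%), with a median log2 fold change of 0.30. SLCO2A1 passed the filter only through the edited libraries and had to differ, and without it 4 of 14 were called higher and 3 lower. PTGS2, the inducible cyclooxygenase that starts the synthesis, had 1431, 1551 and 1323 normalized counts in KYSE450 and 76.6, 61.2 and 50.4 in KEAP1null-KYSE450, and fell by 4.51 (SE 0.17, limma adjusted p = 8.17e-10). The prostaglandin E synthase PTGES fell by 1.98 (SE 0.19) and the prostaglandin E receptor PTGER4 fell by 1.46 (SE 0.25). HPGD, the dehydrogenase that inactivates prostaglandins, had 445, 604 and 461 normalized counts in KYSE450 and 3732, 4474 and 4554 in KEAP1null-KYSE450, and rose by 3.08 (SE 0.13, limma adjusted p = 2.58e-09). The breakdown enzyme PTGR1, the uptake transporter SLCO2A1 (3.33, SE 0.59, tested only through its edited libraries) and the carbonyl reductase CBR1 (2.71, SE 0.097) were also called higher, as was the thromboxane synthase TBXAS1 (1.86, SE 0.33), which was named after its values were seen. Within this list, which leaves out the members, the called synthesis and receptor genes other than TBXAS1 were lower. The called breakdown, uptake and carbonyl reductase genes of the list were higher. AKR1C3, a member that reduces prostaglandins, was called higher as well. PTGR1 and CBR1 stood on the NRF2 target list too.

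Of 32 enzymes of aldehydes, polyols and retinaldehyde, 26 were tested, 4 were called higher and 2 lower (15.4% and 7.69%), shares near the backgrounds of 12.2% and 5.98%, with a median log2 fold change of 0.074. ADH7, a retinol and ethanol dehydrogenase of the upper digestive tract, had 6.42, 1.01 and 0.932 normalized counts in KYSE450 and 163, 193 and 153 in KEAP1null-KYSE450, and rose by 5.79 (SE 0.52, limma adjusted p = 2.37e-06). ADH7 passed the filter only through the edited libraries and had to differ, and without it 3 of 25 were called higher and 2 lower. The retinaldehyde dehydrogenases moved in opposite directions. ALDH1A1 rose by 4.92 (SE 0.21), from 31.0 ± 7.84 to 947 ± 41.4 normalized counts, while ALDH1A3 fell by 1.84 (SE 0.13), from 14543 ± 2444 to 4037 ± 471 (SD, n = 3). ALDH1A3 still had the higher level in both lines. CYP26A1, which breaks down retinoic acid, fell by 1.25 (SE 0.32, limma adjusted p = 0.00654), a call not made by edgeR or DESeq2 on 4 libraries. The fatty aldehyde dehydrogenase ALDH3A2 rose by 1.36 (SE 0.095) and CRYL1, a dehydrogenase of the gulonate that AKR1A1 makes, rose by 1.72 (SE 0.15).

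**Figure D5:**
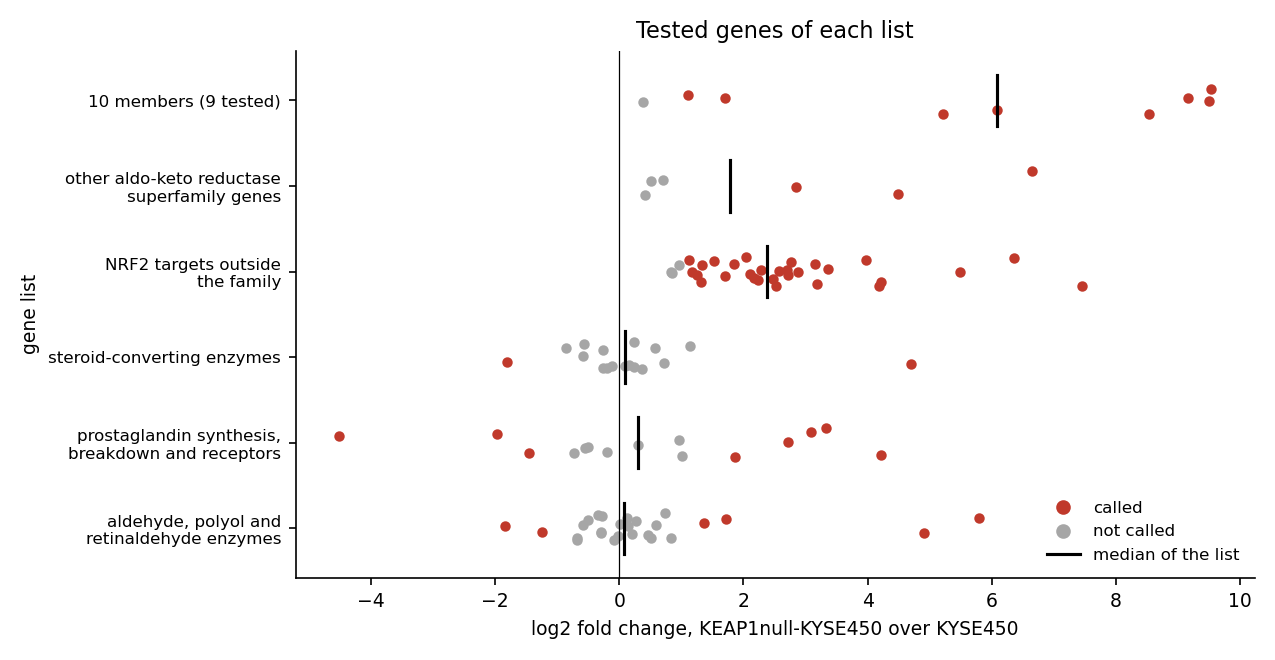
Log2 fold changes (KEAP1null-KYSE450 over KYSE450) of the tested members and of the tested genes of 5 further lists, 1 point per gene, red where called and grey where not, with a black line at each list's median. The NRF2 targets lie to the right of 0, and the steroid, prostaglandin and aldehyde lists have medians between 0.074 and 0.30 with called genes on both sides.

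By the Euclidean distance between log2 values centred on each gene's own mean over the 6 libraries, the genes nearest to AKR1C1 were SPP1 (0.51), F2RL2 and WNT5A (0.65), out of 12334 candidates with a mean of at least 100. The genes nearest to AKR1B10 were SPP1 (0.49), AL033397.1 and F2RL2. With 2 lines this distance mostly measures the size of the change, and the places of F2RL2 and AL033397.1, at 0 or close to it in KYSE450, depend on the pseudocount. SPP1, which encodes the secreted protein osteopontin, had 136, 180 and 212 normalized counts in KYSE450 and 109367, 116392 and 118806 in KEAP1null-KYSE450. F2RL2, a receptor of the thrombin receptor family, was at 0 in KYSE450 and at 992, 795 and 739 normalized counts in KEAP1null-KYSE450, a difference of at least 279.5-fold. WNT5A, a secreted WNT ligand, had 75.9, 65.7 and 45.7 normalized counts against 51309, 46742 and 43622.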

How the data were processed

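The authors deposited 1 matrix of signal values, normalized counts made of whole reads per gene divided by 1 factor per library. Per the methods, quality-filtered reads were aligned to hg38 with STAR and counted with featureCounts. The submitters' processing notes give featureCounts 1.5.1 and cutadapt 1.12. The column names give the line alone, and the libraries of a line are called 1 to 3 in column order.

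Normalized counts were tested with limma 3.58.1 (lmFit, eBayes with trend) on log2(value + 1). Genes with a mean of at least 10 entered, and adjusted p-values are Benjamini-Hochberg values over all of them. In all 6 libraries 100% of values lay within 0.1 of a whole number of steps. In KYSE450 library 2 and KEAP1null-KYSE450 library 3 the step was 1.01. By the rule used here, a step this close to 1 was not counted as checked. Whole reads were thus taken as recovered in 4 libraries, and edgeR 4.0.16 (quasi-likelihood) and DESeq2 1.42.0 were run on these as alternatives. The limma, edgeR and DESeq2 fits were tested on simulated data. Positions, lengths and sequences came from gencode v44 on hg38 and RefSeq promoters, 16630 of 16701 tested identifiers being found. Floors and counting intervals cover counting error only.

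The members and lists were chosen with earlier results of these data known. Named genes were all members, up to 4 called genes per list and direction by size, called genes within 500 kb of a member, the 3 genes most like AKR1C1 and AKR1B10, KEAP1 and NFE2L2, and the exceptions marked in the text.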

Additional observations from a re-analysis of the deposited data

How the results depend on the processing

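The 8 members called higher numbered between 6 and 9 under the 17 alternatives, and no member was called lower in any. Of these, 6 was the count with a mean filter of 100, which 7 members passed, and 9 the count by adjusted p alone, which added AKR7A2. The log2 fold changes of AKR1C1, AKR1C2, AKR1C3, AKR1B10 and AKR1A1 kept their direction and call under every alternative run, and across the 17 planned ones AKR1C1 ranged from 9.25 to 9.56, AKR1C2 from 8.26 to 8.58, AKR1C3 from 9.35 to 9.66, AKR1B10 from 8.92 to 9.47 and AKR1A1 from 1.66 to 1.89. AKR1B1 ranged from 1.05 to 1.28 and lost its call only when tested against a fold change of 2. With the pseudocount alone changed, the fitted values ran from 2.44 to 7.69 for AKR1C4, for which edgeR gave 8.55, and from 2.94 to 9.39 for AKR1B15.

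Over all genes, 2045 were called higher and 999 lower. A mean filter of 100 gave 875 higher, adjusted p alone gave 4060 higher and 4251 lower, and the test against a fold change of 2 gave 626 and 395. Of the called genes, 67.2% were higher, against 53.3% with quantile normalization. With a mean filter of 100, 0 further superfamily genes, 0 steroid enzymes in either direction, 3 prostaglandin genes higher and 1 aldehyde enzyme lower were called. Adjusted p alone gave 3 steroid enzymes higher and 5 lower, 5 prostaglandin genes lower, and 8 aldehyde enzymes higher and 6 lower. With no filter, 3 steroid enzymes were higher. The steroid enzyme called lower, SULT1E1, gave a count of 0 under the test against a fold change of 2, edgeR and DESeq2, and between 0 and 1 with single libraries left out. Of the aldehyde enzymes, 1 was lower with a pseudocount of 10, against a fold change of 2, and by edgeR and DESeq2. The log2 difference of KEAP1 turned to 0.016 after rescaling to the same total, 0.14 with quantile normalization and ranged from -0.072 to 0.040 with single libraries left out, being above 0 without KYSE450 library 1 or KEAP1null-KYSE450 library 2. The causes of these shifts were not tested, beyond the smaller number of genes under the stricter filter.

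The AKR1C1 share of the 3 AKR1C genes was higher in KEAP1null-KYSE450 by 13.0 percentage points, and by 11.9 to 13.7 under the alternatives. With paralogs summed, a choice made after seeing the data, the calls stood. No paired analysis was possible because the columns carry no replicate number. With 3 libraries per line no permutation p can fall under 0.1, and at the lowest levels (AKR7A3, AKR1C4 and AKR1B15) a few reads set the parental value.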
